A study of Homo sapiens with 6 samples.

Results

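The 40 genes described here encode chaperones of the endoplasmic reticulum and components of the unfolded protein response. They were taken from a list fixed by symbol, and all 40 were found among the 11081 gene rows of the deposited table. By role they fell into 20 chaperones and folding enzymes, 4 stress sensors and transcription factors, 9 genes of ER-associated degradation and 7 genes of the translocon. RNA-seq had been carried out in the human bladder cancer line T24, transduced by lentivirus with a short hairpin RNA against the long noncoding RNA BLACAT3 (shBLACAT3, 3 libraries) or with a control hairpin (shControl, 3 libraries). Both groups carried a stable lentiviral insertion selected with puromycin, were labelled as wild type in genotype and were grown in the same serum-containing medium, and the labels name no further treatment. No value of BLACAT3 was analysed here, which leaves the labels unchecked against their target, and the hairpin's sequence was not used.

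The endoplasmic reticulum folds the proteins that a cell secretes or places in its membranes. Proteins enter through the SEC61 channel, are bound by the Hsp70 chaperone BiP (HSPA5), by the lectins calnexin and calreticulin and by protein disulfide isomerases, and are sent to the cytosol for degradation when folding fails. When unfolded protein accumulates, the membrane sensors IRE1 (ERN1), ATF6 and PERK (EIF2AK3) start the unfolded protein response: IRE1 splices the XBP1 messenger, ATF6 is cleaved to a transcription factor, and PERK slows translation while favouring that of ATF4. Cleaved ATF6 and spliced XBP1 act with the CCAAT-binding factor NF-Y at the ER stress response element (ERSE) of chaperone promoters. Secretory and tumour cells are known to rely on this system.

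The promoter letters of the members are shown because HSPA5, CALR and CRELD2, which fell, carry this element. Another 7 members that fell had a promoter window without an exact match to it. HSP90B1, CANX and XBP1 carry the element and did not pass. A part of the element in these differences was not tested. RefSeq promoter windows (build GRCh38.p14, 250 bases before to 50 bases after the gene start) were matched by symbol for 38 of the 40 members, all but PDIA3 and DERL1. Searched on both strands, the ERSE (CCAAT, any 9 bases, then CCACG) was found in the windows of HSPA5, HSP90B1, CRELD2, CALR, CANX and XBP1. These are 6 of 38 members (15.8%), against 14 of 8223 tested genes with a window (0.17%) and 22 of all 27305 windows (0.0806%). The list was drawn up from genes of this stress response, so its higher share is no result of these data. Only exact matches were counted and put in capitals, and a window without any may hold a variant form. In the HSPA5 window below, the lower-case stretch ccaatgaacggcctccaac ends in ccaac instead of ccacg and was not counted. The whole HSPA5 window, chr9:125241294-125241593 on the minus strand, is given 5′ to 3′ with the ERSE in capitals, its first base lying 66 bases before the gene start:
HSPA5: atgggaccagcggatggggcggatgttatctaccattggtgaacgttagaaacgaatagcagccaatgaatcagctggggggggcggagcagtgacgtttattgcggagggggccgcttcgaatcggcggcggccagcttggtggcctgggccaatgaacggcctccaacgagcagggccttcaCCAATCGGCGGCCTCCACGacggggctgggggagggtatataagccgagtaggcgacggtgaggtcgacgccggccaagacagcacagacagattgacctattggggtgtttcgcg

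The ERSE matches of the other 5 genes are printed in the direction of each gene with 10 bases on either side and the match in capitals, so that a match on the opposite strand reads CGTGG first and ATTGG last. HSP90B1, which encodes the ER Hsp90 GRP94, held 2 matches, 1 in each direction (chr12:103930206-103930244 and chr12:103930311-103930349, plus strand). Those of CRELD2 (chr22:49918544-49918582, plus strand) and CALR (chr19:12938374-12938412, plus strand) lay in the opposite direction to the gene. Those of CANX (chr5:179698768-179698806, plus strand) and XBP1 (chr22:28800593-28800631, minus strand) lay in its own direction.
HSP90B1, upstream match: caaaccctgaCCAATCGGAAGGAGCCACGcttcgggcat
HSP90B1, downstream match: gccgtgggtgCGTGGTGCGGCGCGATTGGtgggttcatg
CRELD2: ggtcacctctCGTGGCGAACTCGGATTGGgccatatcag
CALR: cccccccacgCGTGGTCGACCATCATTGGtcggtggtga
CANX: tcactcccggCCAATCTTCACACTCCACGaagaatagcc
XBP1: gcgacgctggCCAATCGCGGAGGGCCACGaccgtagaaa

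The compact form of the element, ERSE-II (ATTGG, any 1 base, then CCACG), was found in HYOU1, SDF2L1 and HERPUD1, 3 of 38 members (7.9%) against 0.122% of the tested genes with a window. HYOU1 held 2 matches (chr11:119057370-119057400 and chr11:119057264-119057294, minus strand), SDF2L1 held 1 (chr22:21642104-21642134, plus strand) and HERPUD1 held 1 (chr16:56932015-56932045, plus strand). The match in HERPUD1 alone read in the direction of its gene.
HYOU1, upstream match: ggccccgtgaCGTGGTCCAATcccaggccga
HYOU1, downstream match: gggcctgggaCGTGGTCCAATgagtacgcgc
SDF2L1: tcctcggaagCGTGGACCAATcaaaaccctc
HERPUD1: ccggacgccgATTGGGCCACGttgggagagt

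The XBP1-type element UPRE (TGACGTGG) was found in 2 of 38 members, HYOU1 and DNAJC10, against 0.936% of the tested genes with a window, and in HYOU1 it overlapped the upstream ERSE-II. A CCAAT pentamer is part of the ERSE and the ERSE-II but not of the UPRE. By itself it was found in 29 of 38 members (76.3%) and in 37.6% of the tested genes with a window. These are matches of letters in a short window, and binding at them was not measured.

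The table gave 1 FPKM per gene and library (fragments counted per kilobase of transcript and scaled to library size), so read depth is unknown. The listed values summed to between 211958 and 226953 FPKM per library. The labels do not say whether the numbered replicates were separate cultures, so p-values measure only library-to-library spread, which may be technical. In bulk RNA, fewer cells of a type and less RNA per cell cannot be told apart. Of 10 epithelial and urothelial markers, KRT7, KRT8 and KRT18 were in the table, with a summed level of 117 to 136 FPKM in shBLACAT3 and 173.8 to 204 FPKM in shControl libraries, and the other 7 were not analysed here. The sum covers opposite directions: KRT8 fell by 1.42 and KRT18 by 0.58 on the log2(FPKM + 1) scale (limma, adjusted p 0.00039 and 0.022), while KRT7, which did not pass (0.69, adjusted p 0.097), had all 3 shBLACAT3 libraries above all 3 shControl libraries, at 32.0 ± 3.45 FPKM in shBLACAT3 and 19.97 ± 5.62 FPKM in shControl cells (SD, n = 3 each). The call of KRT18 was lost without shControl replicate 1 (adjusted p 0.092) or 3 (0.064) or shBLACAT3 replicate 1 (0.053) or 2 (0.0599). Of 7 leukocyte markers CD68 was in the table, at 0.00379 to 0.624 FPKM in shBLACAT3 and 0.686 to 1.22 FPKM in shControl libraries, and none of 4 endothelial markers was. The part of these markers in the results was not tested.

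Of the 20 chaperones and folding enzymes, 10 were lower in shBLACAT3 than in shControl cells, BiP among them. Of the 40 members, 11 fell and 1 rose at an adjusted p under 0.05 in limma, fitted on log2(FPKM + 1) over 10008 genes whose mean reached 1 FPKM. Over all tested genes the same test called 6.80% lower and 2.57% higher. Of the 11 that fell, 10 were chaperones and folding enzymes, led by HSPA5, PDIA4, DNAJB9 and CALR, and the other was EDEM1. The one that rose was ERP29. The median log2 fold change was -0.23 over the 40 members and -0.0025 over all tested genes, and 33 members had a negative value against 50.6% of all tested genes. The 3 shBLACAT3 libraries all lay under the 3 shControl libraries in 21 members and all above them in 1, where such a separation was seen in 18.6% and 14.1% of all tested genes.

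Together the 40 members made up 0.872%, 0.852% and 0.844% of the listed FPKM in shBLACAT3 replicates 1, 2 and 3, against 1.07%, 1.06% and 0.993% in shControl replicates 1, 2 and 3. The chaperone class held most of this, with a summed level of 1448.9 ± 39.1 FPKM in shBLACAT3 and 1869.1 ± 68.4 FPKM in shControl cells (SD, n = 3 each), a mean 22.5% lower. The summed levels of the translocon genes were 262 ± 15.2 FPKM in shBLACAT3 and 272 ± 4.2 FPKM in shControl cells, and those of the degradation genes 100.1 ± 1.2 FPKM in shBLACAT3 and 108.6 ± 6.2 FPKM in shControl cells (SD, n = 3 each). Median log2 fold changes were -0.33 for the chaperones, -0.12 for the sensors, -0.12 for the degradation genes and -0.16 for the translocon genes. Those of the last 2 classes rested on single libraries. Leaving out shBLACAT3 replicate 1 gave a degradation median of -0.191, and leaving out shBLACAT3 replicate 2 gave -0.052. The translocon median was -0.04 when shControl replicate 2 was left out and -0.241 when shBLACAT3 replicate 3 was. The differences between the classes were not tested.

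**Figure D1:**
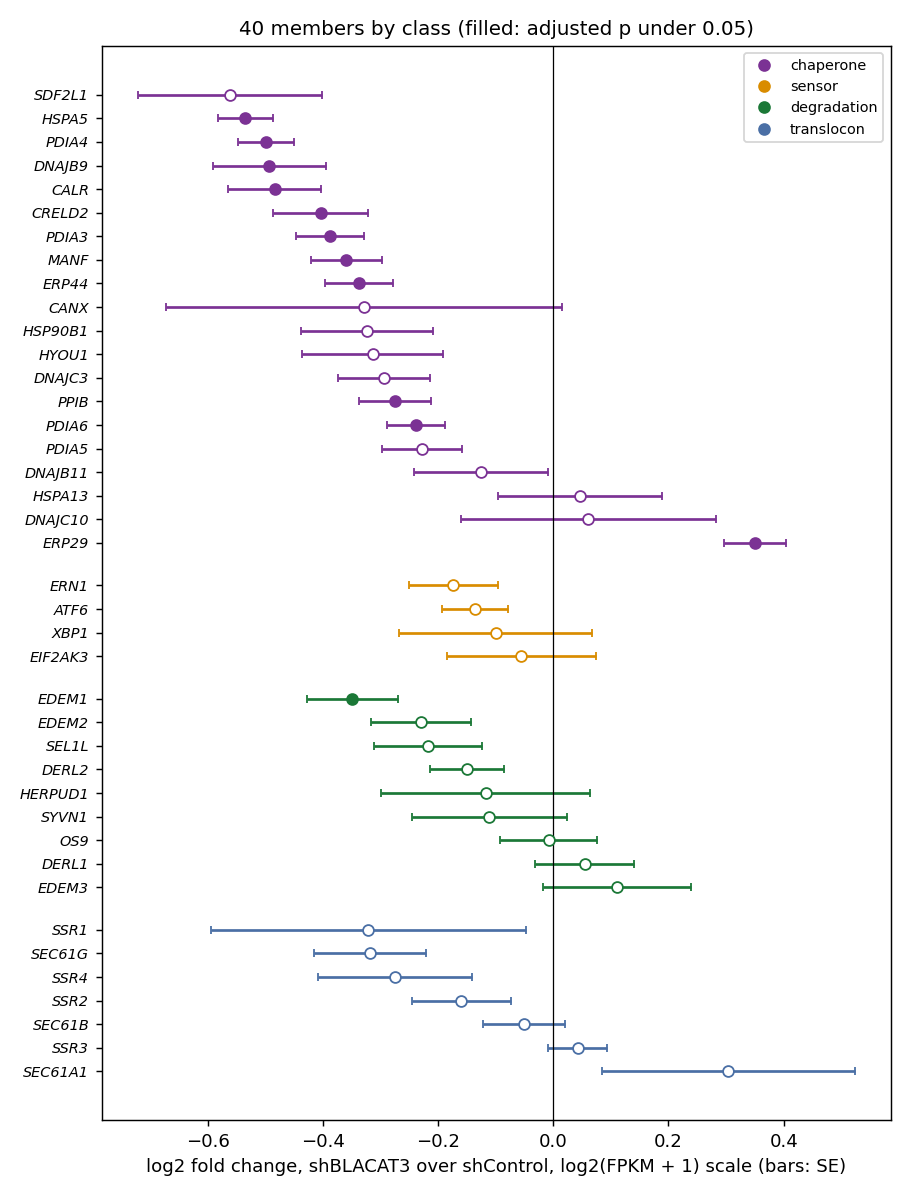
Log2 fold change of each of the 40 members, shBLACAT3 over shControl on the log2(FPKM + 1) scale (x axis), by class, with SE bars; filled points passed an adjusted p under 0.05. Of the 20 chaperones, 17 lie left of 0 and 10 of these are filled, ERP29 is the filled point on the right, and EDEM1 is the only filled point in the other 3 classes.

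**Figure D2:**
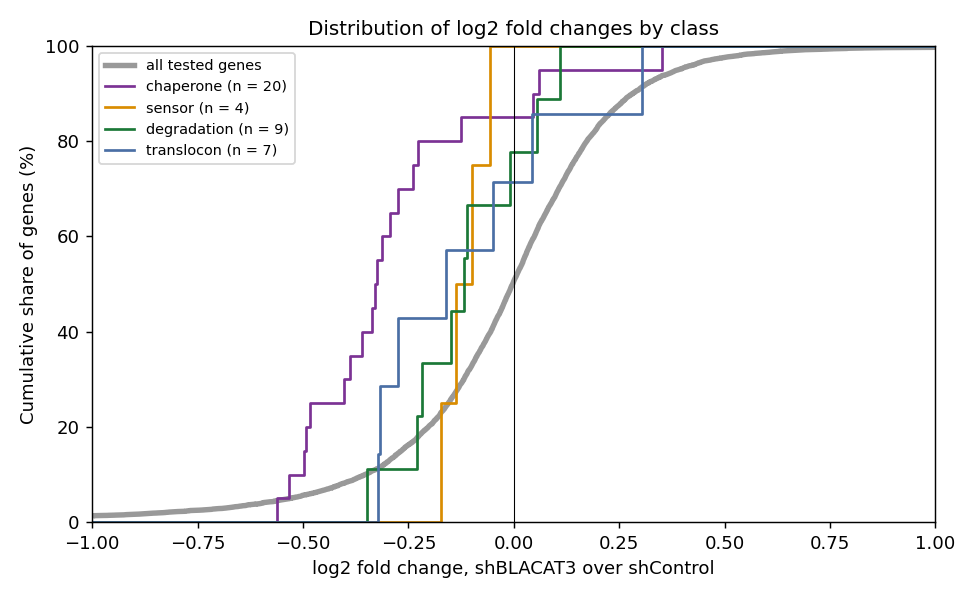
Cumulative share of genes (y axis, percent) by log2 fold change, shBLACAT3 over shControl (x axis, shown from -1 to 1), for each class and for all 10008 tested genes. The chaperone curve has the lowest median, -0.33, where that of all tested genes is -0.0025.

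How many members were called rested on which libraries were kept. Without shControl replicates 1, 2 and 3 the count of lower members was 2, 2 and 3, and without shBLACAT3 replicates 1, 2 and 3 it was 4, 8 and 10. The share of all tested genes called moved with it. It was 3.58%, 4.10% and 4.22% in the first 3 settings and 5.68%, 7.32% and 13.3% in the other 3, against 9.37% with all libraries.

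HSPA5, the Hsp70 chaperone BiP and the main Hsp70 of the ER lumen, was the most abundant member. It stood at 214.0, 222 and 214.1 FPKM in shBLACAT3 replicates 1, 2 and 3, against 317, 315 and 311 FPKM in shControl replicates 1, 2 and 3. The groups were separated by a gap far wider than the spread within either. HSPA5 fell, with a log2 fold change of -0.53 and an SE of 0.05 (adjusted p 0.0013), a mean 31.0% lower in FPKM. Changes of the genes that follow are on the same log2(FPKM + 1) scale. This call and that of PDIA4 were kept under each of the 14 other settings tried, the 6 that left out a library included.

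PDIA4, a disulfide isomerase with several thioredoxin-like domains, stood at 132, 135 and 139 FPKM in shBLACAT3 and at 193, 188.5 and 193 FPKM in shControl libraries. The groups did not overlap, and it fell by 0.50 (SE 0.05, adjusted p 0.0019), a mean 29.4% lower. PDIA3, known as ERp57, forms disulfides in glycoproteins held by calnexin and calreticulin. It stood at 87.2, 91.4 and 94.4 FPKM in shBLACAT3 and at 119, 125 and 115 FPKM in shControl libraries. Again no library of either group overlapped the other, and it fell by 0.39 (SE 0.06, adjusted p 0.011). PDIA6, an isomerase that also binds IRE1, stood at 116, 121.5 and 124 FPKM in shBLACAT3 and at 143, 141 and 144 FPKM in shControl libraries. It fell by 0.24 (SE 0.05, adjusted p 0.034), the smallest change among the lower calls. PDIA5 did not pass, at 7.89 ± 0.27 FPKM in shBLACAT3 and 9.40 ± 0.43 FPKM in shControl cells (SD, n = 3 each; adjusted p 0.099), although its groups did not overlap. The call of PDIA3 was lost without shControl replicate 1 (adjusted p 0.057) or 2 (0.054). That of PDIA6 was lost without shControl replicate 1 (0.137), 2 (0.119) or 3 (0.138) or shBLACAT3 replicate 1 (0.085) or 2 (0.06013), under median scaling (0.09009) and in limma without the trend (0.068).

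CALR, calreticulin, is a soluble lectin that binds calcium and holds folding glycoproteins. It stood at 187.4, 187.4 and 223 FPKM in shBLACAT3 and at 284, 273 and 279 FPKM in shControl libraries. The groups did not overlap, with shBLACAT3 replicate 3 the nearest to shControl. CALR fell by 0.48 (SE 0.08, adjusted p 0.015), a mean 28.4% lower, and the call was lost without shControl replicate 1, 2 or 3 (adjusted p 0.074, 0.058 and 0.064). CANX, calnexin, is its membrane-bound relative. It stood at 167, 85.6 and 166 FPKM in shBLACAT3 and at 205, 209.9 and 109.7 FPKM in shControl libraries. In each group 1 library lay far under the others, shBLACAT3 replicate 2 and shControl replicate 3, so the groups overlapped and the log2 difference of -0.33 was poorly determined (95% interval -1.15 to 0.49, adjusted p 0.59).

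Among the cofactors of BiP, the J-domain protein gene DNAJB9 (ERdj4), which also restrains IRE1, stood at 5.87, 5.85 and 4.69 FPKM in shBLACAT3 and at 8.54, 7.84 and 7.83 FPKM in shControl libraries. The groups did not overlap, and it fell by 0.49 (SE 0.10, adjusted p 0.029), a mean 32.3% lower. SDF2L1, a subunit that works with DNAJB11, had the lowest log2 fold change of all members, -0.56, but a wider error (SE 0.16) and did not pass (adjusted p 0.083). Its values were 9.98, 6.58 and 9.39 FPKM in shBLACAT3 and 14.7, 11.5 and 13.1 FPKM in shControl libraries, without overlap. DNAJC3 (p58IPK), a J-domain cochaperone, likewise had no overlap and did not pass, at 13.6 ± 1.07 FPKM in shBLACAT3 and 16.9 ± 0.90 FPKM in shControl cells (SD, n = 3 each; adjusted p 0.071). HYOU1, a nucleotide exchange factor for BiP, overlapped between the groups because shControl replicate 2, at 20.9 FPKM, lay under shBLACAT3 replicate 1, at 21.1 FPKM (log2 fold change -0.31, adjusted p 0.17). The call of DNAJB9 was lost without shControl replicate 1 (adjusted p 0.119), 2 (0.09028) or 3 (0.091) or shBLACAT3 replicate 1 (0.055).

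The 2 J-domain protein genes DNAJB11 (ERdj3) and DNAJC10 (ERdj5, a disulfide reductase) and the Hsp70-like gene HSPA13 lay closer to no change, with log2 fold changes of -0.13, 0.06 and 0.05 and adjusted p of 0.54, 0.89 and 0.87. Their 95% intervals were -0.40 to 0.15, -0.47 to 0.59 and -0.29 to 0.39, so a log2 fold change as low as that of HSPA5 lay outside each of them. DNAJC10 stood at 12.5, 14.1 and 7.15 FPKM in shBLACAT3 and at 10.6, 9.76 and 10.7 FPKM in shControl libraries, and shBLACAT3 replicate 3 was the lowest of the 6. The same library was the lowest for HSPA13, at 28.02 FPKM, and for HSP90B1, at 109 FPKM. HSP90B1 was 135, 149 and 109 FPKM in shBLACAT3 against 161, 171 and 157 FPKM in shControl libraries, which did not overlap, and did not pass (log2 fold change -0.32, SE 0.11, adjusted p 0.14).

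MANF and CRELD2 encode small proteins of the ER lumen that are partly secreted under stress. MANF, which binds BiP, stood at 44.4, 42.2 and 46.8 FPKM in shBLACAT3 and at 59.7, 56.4 and 55.7 FPKM in shControl libraries. It fell by 0.36 (SE 0.06, adjusted p 0.017) with no overlap. CRELD2, at a far lower level, stood at 4.78, 4.36 and 4.56 FPKM in shBLACAT3 and at 6.60, 5.80 and 6.72 FPKM in shControl libraries. It fell by 0.40 (SE 0.08, adjusted p 0.031), also with no overlap. The call of MANF was lost without shControl replicate 1 (adjusted p 0.084), 2 (0.068) or 3 (0.06043) or shBLACAT3 replicate 1 (0.056). That of CRELD2 was lost without shControl replicate 1 (0.129), 2 (0.055) or 3 (0.124) or shBLACAT3 replicate 1 (0.067) or 2 (0.068).

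PPIB, cyclophilin B, a proline isomerase needed for collagen folding, stood at 182.5, 189.8 and 207 FPKM in shBLACAT3 and at 237, 229 and 235 FPKM in shControl libraries. It fell by 0.28 (SE 0.06, adjusted p 0.042) with no overlap. ERP44, which returns escaped oxidoreductases and unassembled proteins from the Golgi, stood at 19.9, 20.4 and 21.2 FPKM in shBLACAT3 and at 26.3, 27.0 and 25.2 FPKM in shControl libraries, and fell by 0.34 (SE 0.06, adjusted p 0.018). ERP29, a relative of the disulfide isomerases that lacks their redox-active cysteine motif, moved the other way. It stood at 31.9, 31.4 and 32.9 FPKM in shBLACAT3 and at 24.8, 25.6 and 24.4 FPKM in shControl libraries. All 3 shBLACAT3 values lay above all 3 shControl values, and ERP29 rose by 0.35 (SE 0.05, adjusted p 0.012), a mean 28.6% higher. The call of ERP29 was lost without shControl replicate 1 or 3 (adjusted p 0.062 each). That of ERP44 was lost without shControl replicate 1 (0.085), 2 (0.084) or 3 (0.057) or shBLACAT3 replicate 1 (0.06). That of PPIB was lost without shControl replicate 1 (0.162), 2 (0.123) or 3 (0.148) or shBLACAT3 replicate 1 (0.098) or 2 (0.09011), under median scaling (0.101) and in limma without the trend (0.069).

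**Figure D3:**
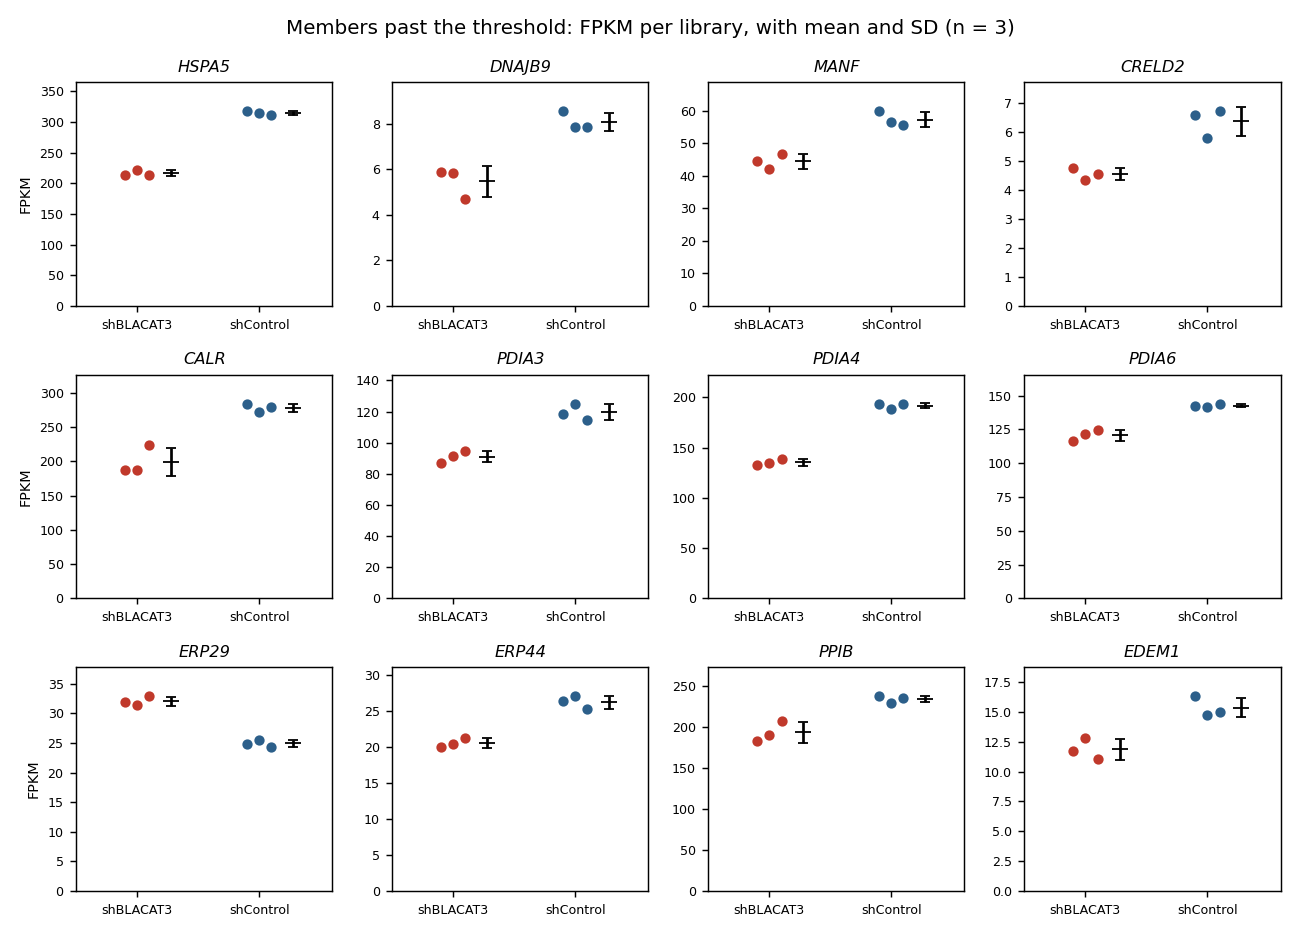
FPKM (y axes, each from 0) of the 12 members past the threshold in the 3 shBLACAT3 (red) and 3 shControl (blue) libraries, 1 point per library in the order of replicates 1, 2 and 3, with mean and SD in black. The red points lie under the blue in 11 panels and above them in that of ERP29, and in HSPA5 the means are 217 FPKM in shBLACAT3 and 314 FPKM in shControl.

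The sensors did not pass. ERN1 was near the filter, at 1.08, 0.914 and 0.948 FPKM in shBLACAT3 and 1.21, 1.16 and 1.33 FPKM in shControl libraries. ATF6 stood at 15.4, 15.7 and 16.1 FPKM in shBLACAT3 and 17.9, 17.0 and 17.3 FPKM in shControl libraries. Both had groups that did not overlap, with log2 fold changes of -0.17 (95% interval -0.36 to 0.01, adjusted p 0.21) and -0.14 (95% interval -0.27 to 0.0012, adjusted p 0.197). EIF2AK3 stood at 4.41, 5.88 and 4.28 FPKM in shBLACAT3 and 5.51, 4.46 and 5.21 FPKM in shControl libraries, which overlapped (log2 fold change -0.06, adjusted p 0.83). XBP1 stood at 34.3, 38.7 and 30.3 FPKM in shBLACAT3 and at 29.4, 36.7 and 46.2 FPKM in shControl libraries. Its shControl values spread over a 1.57-fold range that enclosed all 3 shBLACAT3 values, and its log2 fold change was -0.10 (95% interval -0.50 to 0.30, adjusted p 0.75). Of the 4 genes 0 passed in limma, also at an unadjusted p under 0.05. Over all tested genes 9.37% were called, 25.6% had an unadjusted p under 0.05 and 18.6% had all shBLACAT3 libraries lower. A class of 4 genes is too small to be set apart from these shares. Gene-level FPKM does not separate spliced from unspliced XBP1, and the cleavage of ATF6 and the phosphorylation of PERK leave no direct trace in these values.

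The targets of the 3 arms were counted in lists drawn up with earlier results of these data known. Of 11 genes taught as ATF6 targets, all of them members, 5 fell and 0 rose, with a median log2 fold change of -0.36. The 5 were HSPA5, PDIA4, CALR, MANF and CRELD2, all chaperones counted above, so these calls are no separate result. Of 11 genes taught as XBP1 targets, 6 of them members, DNAJB9 and EDEM1 fell and 0 rose, with a median of -0.13. Of 9 tested genes of the PERK and ATF4 arm, none of them members, 3 rose and 0 fell, with a median of -0.05. ATF4 itself is in this list and is 1 of the 3. The background shares stand above, at 6.80% lower and 2.57% higher. The ATF6 list holds more of the chaperone class than the XBP1 list, and differences between the lists were not tested.

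ATF4, the transcription factor translated when PERK or another kinase slows initiation, stood at 109.1, 90.3 and 99.0 FPKM in shBLACAT3 and at 65.6, 70.3 and 70.6 FPKM in shControl libraries. It rose by 0.52 (SE 0.08, adjusted p 0.011), a call lost when shControl replicate 1 was left out (adjusted p 0.058). ASNS, asparagine synthetase, stood at 54.2, 53.5 and 51.8 FPKM in shBLACAT3 and at 31.8, 36.5 and 39.1 FPKM in shControl libraries, and rose by 0.56 (SE 0.08, adjusted p 0.0094). STC2, a secreted glycoprotein, was the third to rise, by 0.73. The other 6 tested targets of this arm did not pass. DDIT3 (CHOP) had a log2 fold change of -0.19 (adjusted p 0.21), PPP1R15A (GADD34) -0.31 (adjusted p 0.15), TRIB3 0.12 (adjusted p 0.54), CHAC1 -0.16 (adjusted p 0.52) and SESN2 -0.05 (adjusted p 0.87). ATF3 had the lowest value of the list, -1.05 (SE 0.29, adjusted p 0.075), at 5.31, 3.21 and 6.83 FPKM in shBLACAT3 and 7.65, 13.5 and 13.7 FPKM in shControl libraries.

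**Figure D4:**
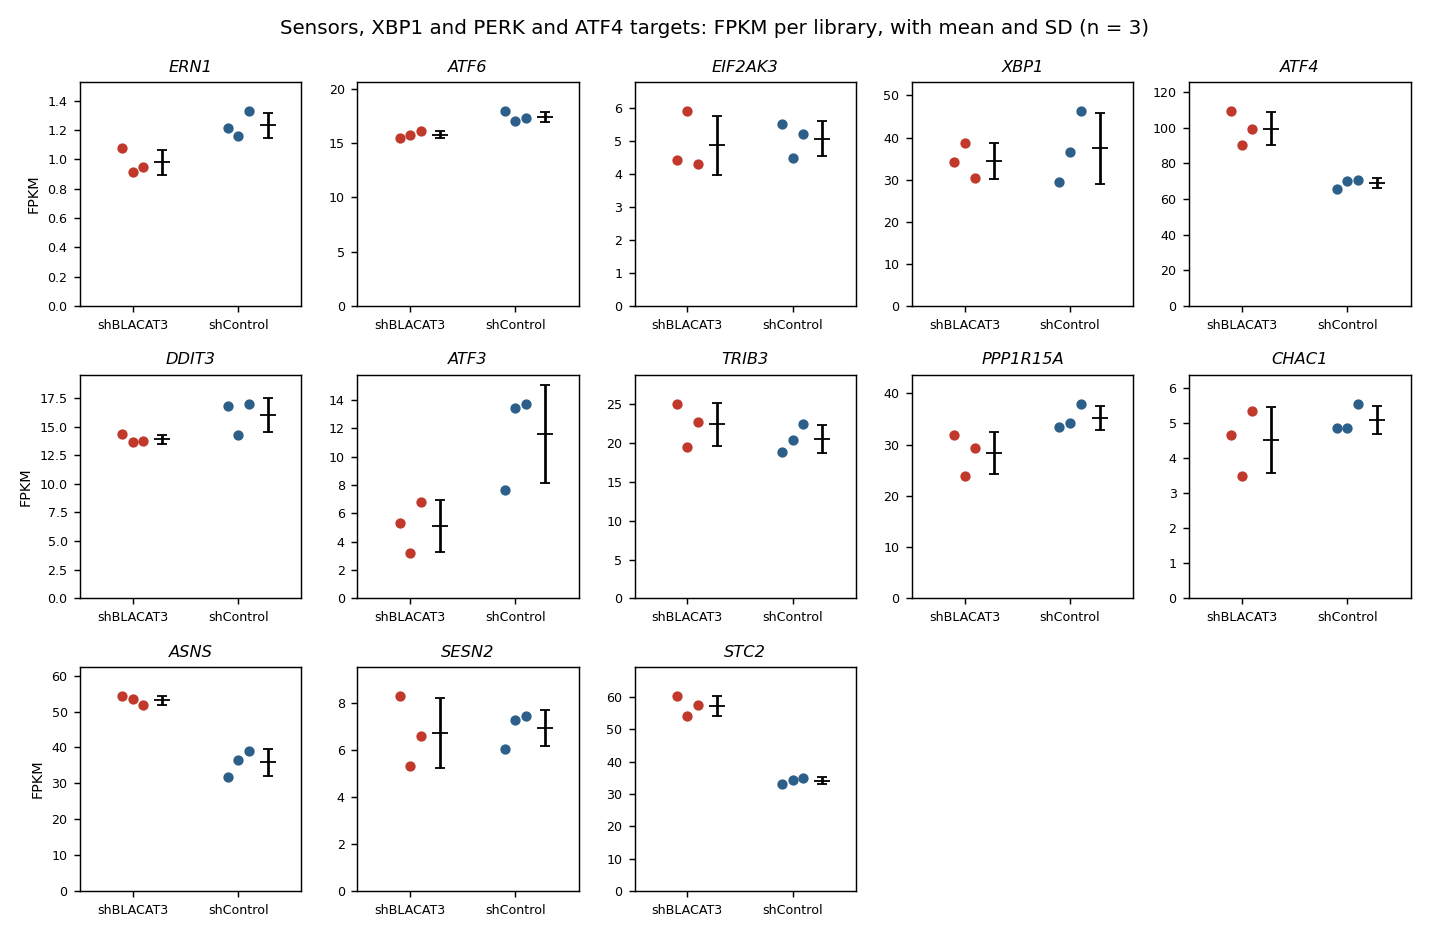
FPKM (y axes, each from 0) of the 3 sensors, XBP1 and the 9 tested genes of the PERK and ATF4 arm, ATF4 included. The 3 shBLACAT3 (red) and 3 shControl (blue) libraries are shown, with mean and SD in black. ATF4, ASNS and STC2 show red above blue with no overlap, the means of ATF4 being 99.4 FPKM in shBLACAT3 and 68.8 FPKM in shControl, while XBP1 and EIF2AK3 overlap.

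In ER-associated degradation, EDEM1 fell and the other 8 members did not pass, where 6.80% of all tested genes were called lower. EDEM1 helps trim the mannose chains that mark misfolded glycoproteins. It stood at 11.7, 12.9 and 11.1 FPKM in shBLACAT3 and at 16.3, 14.8 and 15.0 FPKM in shControl libraries, and fell by 0.35 (SE 0.08, adjusted p 0.041) with no overlap. The call was lost without shControl replicate 1 (adjusted p 0.156), 2 (0.105) or 3 (0.121) or shBLACAT3 replicate 1 (0.112) or 3 (0.063). Its relatives EDEM2 and EDEM3 had log2 fold changes of -0.23 (adjusted p 0.16) and 0.11 (adjusted p 0.63), and the groups overlapped for EDEM3 only. SEL1L and SYVN1, the adaptor and the ubiquitin ligase of the same complex, had values of -0.22 (adjusted p 0.20) and -0.11 (adjusted p 0.64). DERL1 and DERL2, parts of the exit channel, had values of 0.05 (adjusted p 0.73) and -0.15 (adjusted p 0.20). OS9, a lectin of the ligase complex and the most abundant gene of the class, stood at 20.1, 23.9 and 23.3 FPKM in shBLACAT3 and 24.05, 21.7 and 21.9 FPKM in shControl libraries, and its 95% interval of -0.21 to 0.19 lay around 0. HERPUD1, a scaffold of the ligase, is an ER stress gene whose levels spread widely in both groups, at 16.4, 10.9 and 13.1 FPKM in shBLACAT3 and 17.7, 11.8 and 14.5 FPKM in shControl libraries. In each group replicate 1 was highest and replicate 2 lowest, and the difference did not pass (log2 fold change -0.12, adjusted p 0.72).

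None of the 7 translocon genes passed in limma, and SEC61G alone had an unadjusted p under 0.05. Over all tested genes 9.37% were called and 25.6% had an unadjusted p under 0.05. A class of 7 genes is too small to be set apart from these shares. SEC61G, the small gamma subunit, stood at 30.2, 36.9 and 38.2 FPKM in shBLACAT3 and at 41.7, 45.1 and 44.6 FPKM in shControl libraries, without overlap (log2 fold change -0.32, SE 0.10, adjusted p 0.098). SEC61B, the beta subunit, had a log2 fold change of -0.05 (95% interval -0.22 to 0.12). SEC61A1, the channel itself, had the highest value of the class, 0.30, with a 95% interval of -0.22 to 0.83, and its shControl libraries were spread at 37.5, 28.1 and 19.1 FPKM around a shBLACAT3 range of 31.6 to 35.1 FPKM. SSR1 to SSR4 are the subunits of the TRAP complex that assists the channel. SSR3, at 81.3 ± 1.82 FPKM in shBLACAT3 and 78.9 ± 2.07 FPKM in shControl cells (SD, n = 3 each), was among the steadiest of the class, with a 95% interval of -0.08 to 0.16. SSR1 had the widest spread among shControl libraries of the class, at 7.45, 9.10 and 10.1 FPKM in shBLACAT3 and 7.41, 17.3 and 11.005 FPKM in shControl libraries, and SSR2 and SSR4 had log2 fold changes of -0.16 and -0.27 (adjusted p 0.29 and 0.25).

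The chaperone gene differences can be set beside the promoter letters shown above. As background for the counts that follow, 6.80% of all tested genes were called lower and 2.57% higher. Of the 6 members with an exact ERSE match, HSPA5, CALR and CRELD2 fell and HSP90B1, CANX and XBP1 did not pass. Their median log2 fold change was -0.36. All of them but XBP1 are of the chaperone class, whose median was -0.33. Whether chaperones with the element differed from those without it was not tested. Of the 32 members with a window but no exact match, 7 fell and 1 rose, with a median of -0.20. All but EDEM1 of those that fell were of the chaperone class, PDIA4, DNAJB9 and MANF among them. Variant forms of the element were not searched for. The 3 members with an ERSE-II, HYOU1, SDF2L1 and HERPUD1, did not pass, with a median of -0.31. In the other 8 tested genes with an ERSE 0 passed and the median was -0.19. Before adjustment 5 of them had a p under 0.05, 4 lower and 1 higher, where 15.2% of all tested genes were lower and 10.5% higher by that measure. The higher one was EIF2A, a translation initiation factor, with 0.17 (adjusted p 0.19). The lower ones included SERP1, a ribosome-associated ER membrane protein, with -0.23 (adjusted p 0.055), FICD, the enzyme that AMPylates BiP, with -0.26 (adjusted p 0.19), and the ER oxidase gene ERO1B with -0.39 (adjusted p 0.11). The remaining lower gene was ZNF17, a zinc finger gene (adjusted p 0.18). These 5 genes were chosen after their values were seen.

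In 5 lists of neighbouring secretory pathway genes, 2 of 79 tested genes were called, both lower, against 6.80% lower and 2.57% higher over all tested genes. An unadjusted p under 0.05 was found in 25.6% of all tested genes. Of 22 tested folding and disulfide enzymes outside the member list, 0 passed and 5 had a p under 0.05 before adjustment. UGGT2 alone of these was higher in shBLACAT3. SDF2 at -0.28 and the oxidase gene ERO1A at -0.30 were the nearest (adjusted p 0.064 and 0.068). Of 12 oligosaccharyltransferase genes, MAGT1, an oxidoreductase subunit, fell by 0.33 (SE 0.06, adjusted p 0.016) and the median was -0.14. Of 15 genes of signal recognition, SEC62, SEC63 and signal peptidase, SRPRA, the receptor of the signal recognition particle, fell by 0.41 (SE 0.09, adjusted p 0.041) and the median was -0.03. Of 17 tested further degradation genes 0 passed, 2 had an unadjusted p under 0.05, FAF2 and SELENOS, and the median was 0.02. Of 13 tested regulators and processing factors 0 passed and 5 had an unadjusted p under 0.05, CREB3 at -0.25 and CREB3L2 at -0.26 having the smallest p. NFYB, a subunit of NF-Y, alone of these was higher in shBLACAT3. The call of MAGT1 was lost without shControl replicate 1 (adjusted p 0.079), 2 (0.079) or 3 (0.064) or shBLACAT3 replicate 1 (0.055). That of SRPRA was lost without shControl replicate 1 (0.139), 2 (0.1) or 3 (0.144) or shBLACAT3 replicate 1 (0.093) or 2 (0.091), under median scaling (0.0725) and in limma without the trend (0.052).

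CALR and PDIA3 also belong to the complex that loads peptides for display at the cell surface. TAP1, a subunit of the transporter that brings peptides into the ER, stood at 4.23, 4.05 and 4.10 FPKM in shBLACAT3 and at 11.9, 10.5 and 10.01 FPKM in shControl libraries. The groups did not overlap, and it fell by 1.20 (SE 0.08, adjusted p 0.00043), a call kept under each of the 14 other settings. TAPBP, tapasin, which is joined to PDIA3 by a disulfide bond, stood at 24.2, 17.9 and 19.9 FPKM in shBLACAT3 and 20.3, 18.9 and 20.2 FPKM in shControl libraries, and did not pass (log2 fold change 0.05, adjusted p 0.82). These 2 genes were chosen after their values were seen.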

How the data were processed

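RNA-seq values of 6 T24 libraries, 3 shBLACAT3 and 3 shControl by their titles, were used. Tools named in the submitters' processing notes are cutadapt, HISAT2 (2.1.0) and StringTie, and the library kit was stranded, per the labels' protocols. Neither build, annotation nor strand setting is given in these sources. The deposited values were taken to be FPKM, on account of their non-whole numbers and of StringTie, since the header gives no unit. Columns headed NC and SH were read as shControl and shBLACAT3. Of 11081 rows, 11007 identifiers matched a symbol, and rows of 2 symbols held more than once were summed. No row had both group means under 0.501 FPKM, so genes under that level in shBLACAT3 and shControl alike are missing from the tests.

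The 10008 genes whose mean reached 1 FPKM, the 40 members among them, were tested on log2(FPKM + 1), a scale that understates changes of low genes. The test was limma 3.58.1 (R 4.3.3). Group was its only term, its prior variance followed a trend on the mean, and its two-sided p were adjusted by Benjamini and Hochberg's method over all tested genes. Intervals are 95% limits of that fit. No count test was run. Members named value by value were those past the threshold, the sensors, and the largest changes and highest levels of each class. Of each further list, up to 4 genes past the threshold, or otherwise the 2 with the smallest p, were taken by the rule, and other genes named were chosen after their values were seen. Members and lists were chosen with earlier results of these data known. Protein sequences were not used here. The other genes of the peptide-loading list are not reported here. In simulated data with 10008 genes, 50 genes were changed per size. The test called 22%, 64%, 86% and 98% of changes of 0.25, 0.5, 1 and 2 on the log2 scale. There were 5 unchanged genes among its 140 calls. In the real libraries the SD of the 40 members was at the median 8.6% of the mean in shBLACAT3 and 5.0% in shControl. Whether the simulated shares and calls hold at the wider shBLACAT3 spread was not tested. Figures were drawn with matplotlib 3.10.9.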

Additional observations from a re-analysis of the deposited data

How the results depend on the processing

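With 3 libraries per group, the direction of the 12 called members was the same under the 14 other settings, while the calls depended on the settings. The groups of these 12 members did not overlap, so leaving out 1 library could not have reversed a direction. The replicate block, the fit without the trend and the other filters left the fold changes as they were. The unchanged direction is therefore little evidence of stability. HSPA5 and PDIA4 kept their calls in all 14. Leaving out 1 library gave 2 to 10 members lower, 0 to 1 higher and 357 to 1339 genes called in all, and median log2 fold changes of -0.356 to -0.302 for the chaperones, -0.191 to -0.052 for the degradation genes, -0.163 to -0.083 for the sensors and -0.241 to -0.04 for the translocon. The fit with the replicate number as a block called 5 members lower and 1 higher, with 612 genes in all, and SDF2L1 was among its calls (adjusted p 0.039). It ended the calls of MANF, DNAJB9, CRELD2, ERP44, PDIA6, PPIB, EDEM1 and SRPRA (adjusted p 0.05005 to 0.083). Same-numbered libraries deviated from their group means with correlations across genes of 0.1, 0.117 and 0.09, each the highest for its libraries, and nothing in the labels says that the numbers pair the samples. Array weights gave a median of -0.055 for the degradation genes and called SEC61G (adjusted p 0.045), with 12 members lower. Median scaling and limma without the trend each gave 9 lower, without PDIA6 and PPIB, and a pseudocount of 0.1, quantile normalization, a filter at 0.1 FPKM and no filter each gave 11. Among the members and the further genes whose fold changes are given, the values that changed sign had not passed: OS9 under quantile normalization (0.0006), SESN2 with array weights (0.0446) and, on leaving out 1 library, OS9 (-0.0523 to 0.0644), EIF2AK3 (-0.1766 to 0.0142), SEC61B (-0.1061 to 0.0111), XBP1 (-0.2572 to 0.0597), DERL1 (-0.003 to 0.1086), DNAJC10 (-0.1136 to 0.3297), HSPA13 (-0.0715 to 0.2079), HERPUD1 (-0.2601 to 0.018), SYVN1 (-0.2275 to 0.0268), SESN2 (-0.1922 to 0.0866) and TAPBP (-0.0662 to 0.1422). Calls gained were those of ERO1A (array weights and without shBLACAT3 replicate 2), SERP1 (array weights) and ATF3 (without shBLACAT3 replicate 3). The cause of these shifts was not tested. No read depth is known, so what depth limits cannot be given.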

Other observations

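TXNDC5, a disulfide isomerase-like gene of the further folding list, was listed at 52.9, 3.12 and 4.004 FPKM in shBLACAT3 replicates 1, 2 and 3 and at 55.4, 4.20 and 3.87 FPKM in shControl replicates 1, 2 and 3. In both groups replicate 1 lay far above the other libraries. The readthrough gene BLOC1S5-TXNDC5, which shares its exons, had the opposite order, at 0.489, 68.9 and 76.1 FPKM in shBLACAT3 and 0.69, 67.8 and 74.2 FPKM in shControl libraries. Summed over both names the values were 53.4, 72.1 and 80.1 FPKM in shBLACAT3 and 56.1, 72.0 and 78.1 FPKM in shControl libraries. TMED2, a cargo receptor of the early secretory pathway, was listed at 36.9, 43.3 and 39.1 FPKM in shBLACAT3 and at 88.2, 42.1 and 87.2 FPKM in shControl libraries, so that shControl replicate 2 lay among the shBLACAT3 values. These genes were chosen after their values were seen.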
